A study of Mus musculus with 32 samples.

Results

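Metallothioneins and the genes that move zinc across membranes were followed in the kidneys of mice given cisplatin, a platinum drug whose main toxicity is to the proximal tubule. The set holds 6 genes, chosen by name from the 54532 genes counted: the metallothioneins Mt1 and Mt2, the zinc-sensing transcription factor Mtf1, the zinc exporter Slc30a1 (ZnT1) and the zinc importers Slc39a10 (ZIP10) and Slc39a14 (ZIP14). Whole-kidney RNA was sequenced from 32 wild-type C57BL/6 mice in 8 groups of 4, male and female, at Day 0 and at Day 2, Day 3 and Day 5. Mice of 6 to 8 weeks received a single intraperitoneal dose of 20 mg/kg cisplatin, and each library came from a separate mouse. The animals of Day 0 were taken as healthy controls, as the study calls them, although the sample labels give cisplatin as the treatment of the Day 0 females and none for the Day 0 males. Both sexes therefore had controls from Day 0 alone, and no vehicle group of Day 2, Day 3 or Day 5 entered the comparisons.

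Metallothioneins are small cytosolic proteins, rich in cysteine, that bind zinc and copper and also cadmium, mercury and platinum through their thiols. Free zinc in the cell binds the zinc fingers of MTF-1, which then sits on metal response elements in the promoters of Mt1, Mt2 and Slc30a1 and raises their transcription, while Slc39a10 is reported to be held down by the same factor. Slc30a1 carries zinc out across the plasma membrane, whereas ZIP proteins bring it into the cytosol. Slc39a14, which also carries iron and manganese, and the metallothioneins are known to respond to IL-6, and the metallothioneins also to glucocorticoids and to oxidative stress.

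The coding sequences of both metallothioneins are shown because their cysteines carry the metal and because the 2 genes are close relatives whose reads must be told apart. Both coding sequences were read from the GENCODE transcripts of GRCm38 and run 186 bases, with cysteine codons in capitals.
Mt1: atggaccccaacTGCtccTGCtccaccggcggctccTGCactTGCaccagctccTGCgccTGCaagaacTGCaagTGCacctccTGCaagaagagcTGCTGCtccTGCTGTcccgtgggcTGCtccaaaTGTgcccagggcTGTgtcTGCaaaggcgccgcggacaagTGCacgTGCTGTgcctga
Mt2: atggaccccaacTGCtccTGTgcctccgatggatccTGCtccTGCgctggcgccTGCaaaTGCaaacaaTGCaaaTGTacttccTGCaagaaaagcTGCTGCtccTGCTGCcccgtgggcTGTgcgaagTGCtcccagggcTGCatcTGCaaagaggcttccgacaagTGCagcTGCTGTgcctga
Each encodes 61 amino acids, of which 20 (32.8%) are cysteine. Of the 186 bases, 148 (79.6%) were identical, and the longest stretch shared without a mismatch was 20 bases. No 50-base word of the Mt1 transcripts was found in those of another gene on the same strand, and the same held for Mt2. Slc39a10 shares 27 of its 6042 such words with Gm6801, and Slc39a14 shares 20 of its 10705 with other genes.

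Promoter windows of Mt1, Mt2 and Slc30a1 are shown because metal response elements lie in them. The windows hold 250 bases before and 50 after the start annotated by RefSeq on GRCm38.p6, all on the plus strand, at chr8:94178839-94179138 for Mt1, chr8:94172368-94172667 for Mt2 and chr1:191906531-191906830 for Slc30a1. Capitals mark the core of the metal response element, searched as TGCACNC and TGCGCNC on both strands.
Mt1: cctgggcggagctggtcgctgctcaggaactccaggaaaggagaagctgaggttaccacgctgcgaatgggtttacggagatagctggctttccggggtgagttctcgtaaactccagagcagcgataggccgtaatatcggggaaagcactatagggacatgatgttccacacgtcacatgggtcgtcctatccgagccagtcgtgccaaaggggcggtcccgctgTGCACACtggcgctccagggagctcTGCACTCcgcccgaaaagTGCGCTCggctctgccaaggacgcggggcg
Mt2: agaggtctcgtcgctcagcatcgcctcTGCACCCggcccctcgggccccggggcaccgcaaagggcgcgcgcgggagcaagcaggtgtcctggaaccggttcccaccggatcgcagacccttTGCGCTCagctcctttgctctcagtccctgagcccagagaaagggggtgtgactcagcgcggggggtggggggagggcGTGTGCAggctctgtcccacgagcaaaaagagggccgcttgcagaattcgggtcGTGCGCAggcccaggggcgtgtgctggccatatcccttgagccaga
Slc30a1: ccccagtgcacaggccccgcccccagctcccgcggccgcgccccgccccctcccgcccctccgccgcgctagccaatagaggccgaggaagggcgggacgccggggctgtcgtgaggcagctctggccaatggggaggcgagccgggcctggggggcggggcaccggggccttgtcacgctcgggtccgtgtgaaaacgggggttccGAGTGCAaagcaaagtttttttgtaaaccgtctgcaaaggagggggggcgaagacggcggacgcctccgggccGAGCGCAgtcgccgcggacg
The Mt1 window held 3 matches, at offsets -23, 2 and 20 from the start, the Mt2 window held 4, at offsets -223, -128, -50 and 4, and the Slc30a1 window held 2, at offsets -43 and 30. Among 32851 mouse promoter windows of this length, 25.7% held at least 1 match, 7.11% at least 2, 1.97% at least 3 and 0.517% at least 4. The windows of Mtf1 (chr4:124802299-124802598) and of Slc39a10 (chr1:46853569-46853868 and chr1:46925727-46926026) held 0. None of them covers the start of its gene in the gene table, so those starts were not searched. A match is a stretch of letters and was not measured as a bound site. Slc39a14 was not matched to a window.

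In the coordinates of GRCm38, which the gene table follows for these genes, Mt2 spans chr8:94172664-94173568 and Mt1 chr8:94179082-94180327, both on the plus strand, so that Mt1 starts 6418 bases after Mt2. Mtf1 lies on chr4:124802104-124849800 and Slc30a1 on chr1:191906767-191913247, both on the plus strand. Slc39a10 lies on chr1:46807544-46892852 and Slc39a14 on chr14:70303469-70351425, both on the minus strand. All 6 are annotated as protein-coding.

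Of the 588 exonic bases of Mt2, 432 (73.5%) are also covered by the single exon of Gm45774, an antisense gene on the opposite strand (chr8:94170748-94173412), and this stretch holds 171 of the 186 coding bases. Only 156 exonic bases of Mt2, from 94173413 to 94173568, are free of it. Whether the counting used strand is not given in the sources used here, and without strand reads of Mt2 and Gm45774 cannot be told apart. Gm45774 itself received between 0 and 28 counts per library. The exons of Mt1, Slc39a10 and Slc39a14 overlap no other gene, whereas 8.09% of those of Mtf1 and 8.92% of those of Slc30a1 do.

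**Figure D1:**
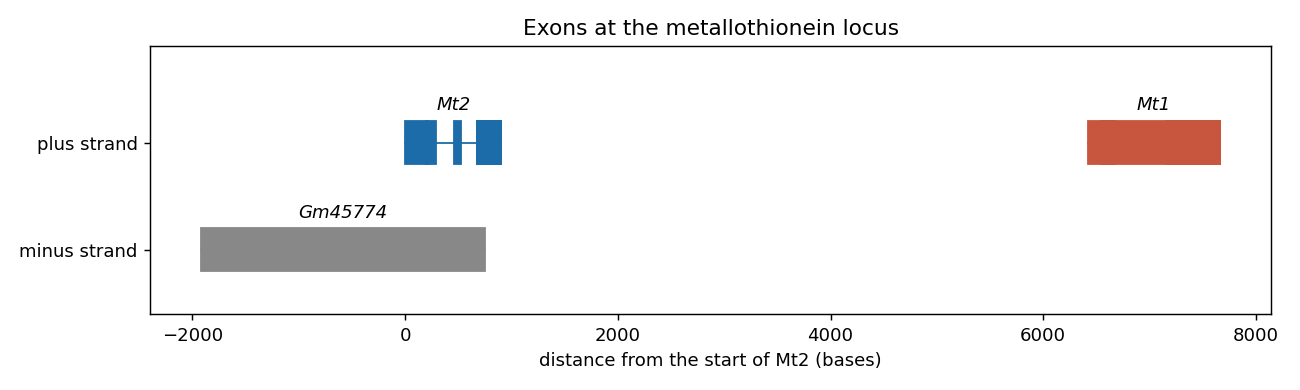
Exons of Mt2, Mt1 and the antisense gene Gm45774 by strand, with the distance from the start of Mt2 in bases on the horizontal axis and boxes for the union of annotated exons. The Gm45774 exon ends 748 bases after the Mt2 start and covers 432 of the 588 exonic bases of Mt2, while Mt1 begins at 6418 and is free of it.

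Libraries held between 16502107 and 35961325 counts, and all 6 genes passed the filter on low counts in every comparison. Some libraries stood apart. Mitochondrial genes took 77.9% to 79.8% of the counts in mice 2, 3 and 4 of male Day 5 and in mouse 2 of female Day 5, and 42.5% in male Day 5 mouse 1, against 4.49% to 24.0% at Day 0. In male Day 5, the library labelled as mouse 1 carried signals of both sexes, with 4153 Xist counts against 59 to 260 in the other male Day 5 mice and 387 counts of Y-linked genes against 447 to 545, so its label is in doubt. It was kept as labelled, and the members called in that group are given with and without it. Among the female controls, mouse 1 also held 221 Y-linked counts beside 4181 of Xist, and mice 2, 3 and 4 held 5, 44 and 66, against 0 in every later female library. Among the male controls, mouse 4 held 242 Xist counts and mouse 1 held 50, against 0 to 5 in the males of Day 2 and Day 3. In female Day 0 mouse 2 the summed level of 6 hepatocyte genes was 10860 CPM (counts scaled to library size, with TMM factors), against 413 at most in any other library. Summed adrenal cortex markers were at 228 to 662 CPM in female Day 5, at 876 and 970 CPM in mice 3 and 4 of female Day 3 and at 279 CPM in male Day 2 mouse 2, against 125 at most at Day 0, and their part in the levels of those groups was not tested. All 7 proximal tubule markers were detected in every library of Day 0 and Day 5, but their summed level in male Day 5 lay below the range of male Day 0, at 518 to 3992 CPM against 7440 to 9107.

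Levels per kilobase differed widely between the genes. On the deposited FPKM scale, which divides by gene length, Mt1 had a median of 197.1 over the 32 libraries (57.4 to 501), Slc30a1 of 10.7, Slc39a10 of 3.34, Slc39a14 of 3.04, Mt2 of 2.29 (0 to 8.87) and Mtf1 of 1.57. Mt2 was counted at a median of 0.484% of Mt1 (0% to 1.75% per library), with 1358 counts of Mt2 against 236545 of Mt1 over all libraries. Both are known as abundant, jointly regulated genes, and the part of the antisense overlap in this gap was not tested. Values of Mt2 are therefore given as uncertain throughout.

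Mt1 rose about 3-fold in males at Day 5 on the TMM scale and did not pass the test at any other day in either sex. By mouse number, male Day 0 mice held 1737, 1891, 5374 and 3782 raw Mt1 counts. Male Day 5 mice held 4902, 2592, 3711 and 3414. TMM factors were 0.345, 0.346 and 0.319 in Day 5 mice 2, 3 and 4 and 0.931 in mouse 1, against 0.942 to 1.11 at male Day 0. The size of the rise therefore depends on that scaling. Male Day 0 mice held 94.6, 94.5, 186 and 212 CPM, and male Day 5 mice 267, 365, 574 and 461 CPM. Every male Day 5 mouse was above every male Day 0 mouse, and the lowest of Day 5 was the library with signals of both sexes. Mean levels were 417 ± 131 against 147 ± 61.3 CPM (SD, n = 4 each), a log2 fold change of 1.59 (SE 0.39, edgeR adjusted p = 0.0229). At this day 8.98% of all genes tested rose and 10.2% fell, so that 1 member higher and 1 lower of 6 is to be read against those shares. Without mice 2, 3 and 4, an alternative chosen after seeing the data, the log2 fold change of Mt1 was 0.94 (SE 0.54) with an adjusted p = 0.825 and a single mouse at Day 5, which is assumed to vary like the controls. Without mouse 1 it was 1.77 (adjusted p = 0.00921). Leaving out single mice lost the call in 5 of 8 fits, those without mouse 2, 3 or 4 of Day 5 or mouse 1 or 2 of Day 0, with adjusted p-values up to 0.0711.

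In males at the earlier days Mt1 did not differ from Day 0 beyond the spread between mice. Male Day 2 mice held 112, 148, 117 and 276 CPM and male Day 3 mice 276, 92.7, 126 and 73.2 CPM, with 1 mouse of each day above the highest of Day 0 and 2 mice of Day 3 below the lowest. Log2 fold changes were 0.12 (SE 0.38, adjusted p = 0.856) and -0.08 (SE 0.46, adjusted p = 0.905).

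In females none of the 3 days differed from Day 0 in Mt1 beyond the spread between mice. Healthy females held 236, 431, 340 and 149 CPM, and the highest, mouse 2, was the library with the hepatocyte genes. The part of the liver RNA in that value was not tested. Day 2 females held 473, 244, 372 and 212 CPM and Day 3 females 483, 116, 311 and 476 CPM. Day 5 females held 593, 214, 600.2 and 327 CPM, where the lowest was mouse 2, the library of high mitochondrial share. Log2 fold changes were 0.12 (SE 0.38), 0.22 (SE 0.47) and 0.56 (SE 0.41) at Day 2, Day 3 and Day 5, with adjusted p-values of 0.868, 0.770 and 0.520. Without mouse 2 of Day 0 they were 0.41, 0.48 and 0.83, and none passed the test.

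Over the 8 groups the mean level of Mt1 was highest in female Day 5 (434 ± 194 CPM) and male Day 5 (417 ± 131), followed by female Day 3 (346 ± 173), female Day 2 (326 ± 120) and female Day 0 (289 ± 123). Males at Day 2 (163 ± 76.8), Day 0 (147 ± 61.3) and Day 3 (142 ± 92.2) came last. Each step between neighbours in this order was smaller than the larger of their SDs, except that from female Day 0 to male Day 2, which just exceeded it.

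Mt2 was counted at low numbers, from 0 to 138 per library. Healthy females held 15, 45, 0 and 16 counts, where the 0 allows up to 0.144 CPM at a floor of 3 counts, and females held 114, 109, 55 and 43 counts at Day 2, 138, 24, 73 and 126 at Day 3 and 73, 31, 109 and 37 at Day 5. On the CPM scale the highest healthy female had 1.22, and the lowest female was at 1.57 at Day 2, 0.552 at Day 3 and 1.60 at Day 5. The Day 2 and Day 5 groups thus did not overlap with healthy females and the Day 3 group did. Log2 fold changes were 2.07 (SE 0.78), 2.03 (SE 0.91) and 2.39 (SE 0.86), but adjusted p-values of 0.136, 0.166 and 0.233 in edgeR kept all 3 from being called. DESeq2 called Mt2 at Day 2 (adjusted p = 0.0352) and at Day 5 (adjusted p = 0.0429). Without healthy mouse 2, the library with hepatocyte genes, the log2 fold changes were 2.87, 2.82 and 3.18, and edgeR called none of them. In males the counts ran from 4 to 40 at Day 0, 14 to 84 at Day 2, 4 to 41 at Day 3 and 7 to 31 at Day 5, and log2 fold changes of 0.87 (SE 0.76), 0.13 (SE 0.82) and 1.57 (SE 0.80) did not pass the test. With single mice left out the value of male Day 5 ran from 0.65, without mouse 3 of Day 5, to 2.25, without mouse 3 of Day 0.

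**Figure D2:**
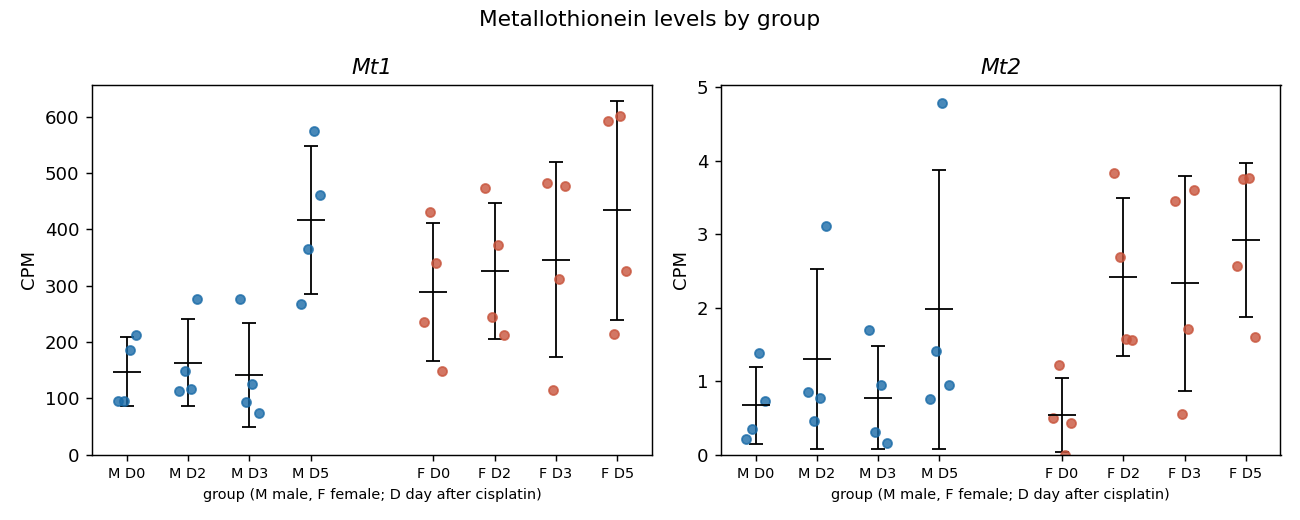
Levels of Mt1 and Mt2 in CPM, 1 point for each mouse, by sex and day, with the group mean as a dash and 1 SD as the bar (n = 4). In males all 4 mice of Day 5 lie above the healthy mice for Mt1 (267 to 574 against 94.5 to 212 CPM), and in females all mice of Day 2 and Day 5 lie above the healthy mice for Mt2.

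Of the other metallothioneins, Mt4 had 0 counts in all 32 libraries. Mt3, a form best known from the brain, fell in males at Day 3, from 0.545, 0.750, 0.691 and 2.98 CPM to 0.166, 0.155, 0.189 and 0.117 CPM. The groups did not overlap, and the log2 fold change was -2.96 (SE 0.68, adjusted p = 0.0203) on 3 to 5 counts per library at Day 3. Without healthy male mouse 4, which held 2.98 CPM, it was -2.07 (SE 0.44, adjusted p = 0.0134). Day 2 males (log2 fold change -2.24, adjusted p = 0.0806) and females at Day 2 (-2.33, adjusted p = 0.0511), Day 3 (-2.50, adjusted p = 0.0501) and Day 5 (-2.73, adjusted p = 0.187) did not pass the test. Male Day 5 mice held 0.927, 2.25, 0.927 and 1.35 CPM, within the range of healthy males.

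Mtf1, the factor that senses zinc, had its highest mean levels at Day 2 and Day 3 of both sexes but passed edgeR's test in none of the comparisons when each was fitted on its own groups. A joint fit of the 8 groups called it higher in females at Day 2 and Day 3, beside 3976 and 4268 of 18220 genes changed in either direction. Healthy females held 9.04, 7.31, 4.79 and 14.0 CPM and Day 2 females 16.9, 18.4, 16.05 and 16.03 CPM. Every Day 2 female was above every healthy female, with a log2 fold change of 0.89 (SE 0.30) and an adjusted p = 0.104. At Day 3 females held 17.1, 14.95, 17.3 and 12.7 CPM (log2 fold change 0.77, SE 0.30, adjusted p = 0.124). Leaving out the healthy female with 14.0 CPM, mouse 4, gave an adjusted p of 0.00707 at Day 2 and 0.00839 at Day 3, and the other fits without 1 mouse gave adjusted p-values up to 0.267 and 0.274. Males moved from 11.8, 10.4, 7.08 and 15.5 CPM to 16.3, 13.0, 15.4 and 17.2 CPM at Day 2 and 17.8, 16.8, 14.3 and 15.98 CPM at Day 3, with log2 fold changes of 0.45 (SE 0.23, adjusted p = 0.223) and 0.52 (SE 0.22, adjusted p = 0.107). At Day 3 leaving out the healthy male with 15.5 CPM, mouse 4, gave an adjusted p of 0.0184, and the other fits without 1 mouse gave up to 0.223. By Day 5 the mean was 10.4 ± 2.12 CPM in males and 12.7 ± 3.30 CPM in females, and both groups overlapped with healthy animals.

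The zinc exporter Slc30a1 fell in males at Day 5. Healthy males held 71.9, 61.3, 86.8 and 37.4 CPM and Day 5 males 43.6, 16.8, 17.3 and 14.0 CPM, so that mice 2, 3 and 4 lay below every control and mouse 1 lay within the control range. Mean levels were 22.9 ± 13.9 against 64.3 ± 20.8 CPM, and the fitted log2 fold change was -1.41 (SE 0.39, adjusted p = 0.0357). Without mouse 1 the log2 fold change was -1.90 (SE 0.30, adjusted p = 0.00279). Without mice 2, 3 and 4 it was -0.47 (SE 0.47, adjusted p = 0.834), again with mouse 1 as the single Day 5 male. Of the 8 fits that left out 1 mouse, 2 kept the call, those without mouse 1 of Day 5 or mouse 4 of Day 0, and the largest adjusted p was 0.106.

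Low Slc30a1 went with a high mitochondrial share in both sexes. In females at Day 5 mouse 2, with 77.9% mitochondrial counts, held 22.9 CPM, and the other mice, with 9.30% to 31.6%, held 48.2, 40.2 and 47.1 CPM. The log2 fold change in females was -0.31 (SE 0.32, adjusted p = 0.648). The male libraries of high mitochondrial share also had the lowest sums of proximal tubule markers, at 978, 519 and 518 CPM in mice 2, 3 and 4 against 3992 in mouse 1, and female Day 5 mouse 2 held 2212 CPM against 2757 to 6653 in the other females of that day. Summed leukocyte markers reached 196 CPM in male Day 5 against 93.6 at most in healthy males, and summed neutrophil markers 7.58 to 177 CPM against 0.817 to 1.52. Collecting duct markers summed to 792 to 1491 CPM in male Day 5 against 378 to 775 at Day 0, without overlap, and podocyte markers to 11.7 to 16.8 CPM in mice 2, 3 and 4 and 67.8 in mouse 1 against 41.5 to 61.8. Erythroid sums reached 4686 CPM and adipocyte sums 2083 CPM in that group, against 1828 and 1332 at most at Day 0. In whole-kidney RNA fewer cells of a type and less RNA per cell cannot be told apart, and the part of these shifts in the levels of Slc30a1 and Mt1 was not tested.

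At Day 2 and Day 3 Slc30a1 did not pass the test in either sex. Male means were 63.0 ± 4.62 and 65.9 ± 2.33 CPM, and log2 fold changes were -0.06 (SE 0.24) and 0.00 (SE 0.23). In females the means were 59.0 ± 12.9 and 58.7 ± 9.51 CPM against 48.6 ± 21.5 at Day 0, with log2 fold changes of 0.22 at both days (SE 0.31 and 0.29, adjusted p = 0.671 and 0.612).

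**Figure D3:**
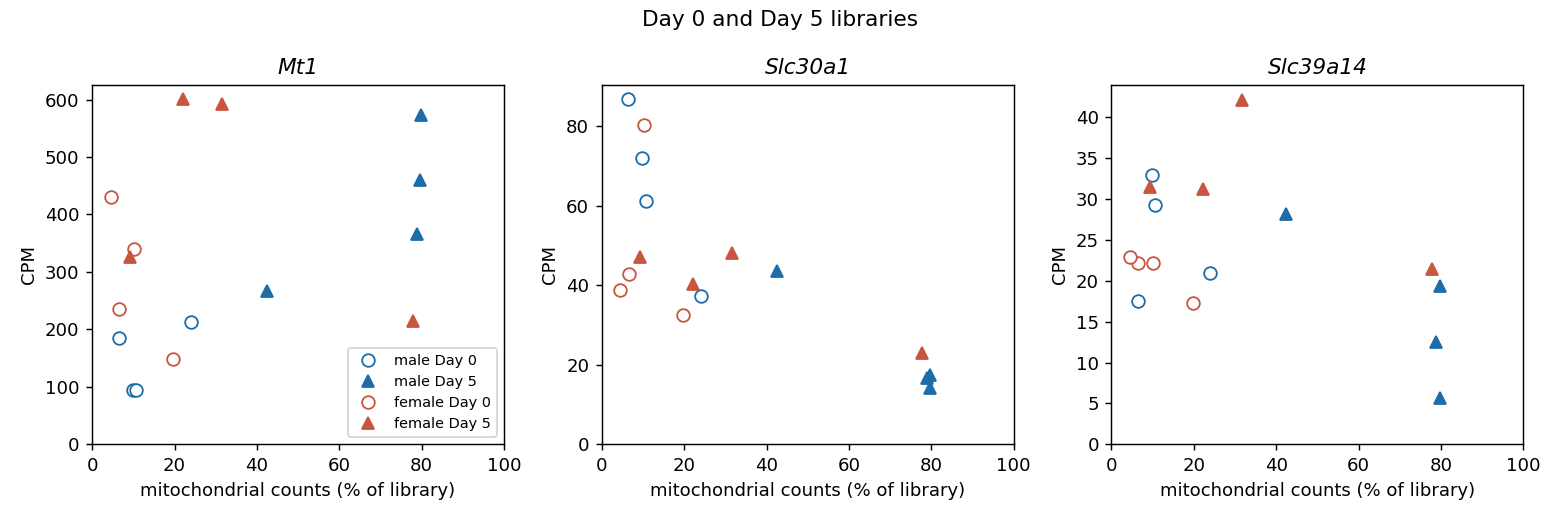
Levels of Mt1, Slc30a1 and Slc39a14 in CPM against the percentage of counts on mitochondrial genes, 1 point for each mouse of Day 0 (open circles) and Day 5 (triangles), males in blue and females in red. The 4 Day 5 libraries near 80% have the lowest Slc30a1, at 14.0 to 22.9 CPM, whereas their Mt1 spans 214 to 574 CPM.

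The importer Slc39a14 about doubled in females and was the only member that the main edgeR fits called in that sex at Day 2 or Day 3. DESeq2 also called Mt2 at Day 2, beside 2132 of 16541 genes. A joint fit of the 8 groups also called Mtf1, with adjusted p-values of 0.00915 at Day 2 and 0.0172 at Day 3. That fit called 3976 and 4268 of 18220 genes on those days. Healthy females held 22.2, 23.0, 22.1 and 17.3 CPM, Day 2 females 46.0, 49.8, 54.1 and 34.6 CPM and Day 3 females 54.9, 35.0, 45.2 and 41.2 CPM. Neither day overlapped with healthy females. At Day 2 the mean was 46.1 ± 8.38 against 21.1 ± 2.62 CPM, with a log2 fold change of 1.07 (SE 0.21, adjusted p = 0.0416), and at Day 3 it was 44.1 ± 8.36 CPM, with 1.01 (SE 0.19, adjusted p = 0.0465). Over all genes 0.774% rose and 1.16% fell at Day 2 and 1.26% rose and 4.28% fell at Day 3, beside 1 of 6 members higher and 0 lower on each day. Calls were lost when any of healthy mice 1 or 2 or Day 2 mice 1, 2 or 3 was left out, and at Day 3 when any of healthy mice 1, 2 or 3 or Day 3 mice 1, 3 or 4 was. There adjusted p-values reached 0.167 and 0.168, while over all these fits the log2 fold change stayed between 0.98 and 1.19 and between 0.88 and 1.12. Without healthy mouse 2, the library with hepatocyte genes, the adjusted p was 0.113 at Day 2 and 0.137 at Day 3. With the replicate number as a block both calls were lost too, with log2 fold changes of 1.06 (SE 0.23, adjusted p = 0.0907) and 1.001 (SE 0.21, adjusted p = 0.137).

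Markers of other cells moved with these groups. Summed erythroid markers ran from 368 to 2350 CPM in healthy females, from 6.98 to 43.3 CPM at Day 2 and from 2.86 to 74.9 CPM at Day 3. Proximal tubule markers summed to 6104 to 9518 CPM in healthy females, to 3175 to 9676 CPM at Day 2 and, in mice 1 to 4 of Day 3, to 3004, 7128, 3768 and 3428 CPM. Slc34a1 made up most of the healthy sum, at 3821 to 5834 CPM against 1128 to 3297 at Day 3. Aqp1 went the other way, at 301 to 650 CPM in healthy females against 498 to 855 at Day 3. Distal tubule markers summed to 867 to 1011 CPM in healthy females, 419 to 640 CPM at Day 2 and 331 to 860 CPM at Day 3, below the healthy range on both days. Thick limb sums moved up, from 524 to 2315 CPM (median 1346) to 2134 to 2678 (median 2480) and 1701 to 3747 (median 3016), with overlap. Podocyte medians moved from 59.2 to 90.5 and 81.2 CPM, also with overlap. Leukocyte markers summed to 37.2 to 53.0 CPM in healthy females, 20.9 to 31.2 CPM at Day 2 and 27.7 to 41.4 CPM at Day 3. Most of the healthy sum was Lyz2, at 32.1 to 43.3 CPM against 9.40 to 16.6 at Day 2. Cd68 went the other way, at 1.29 to 4.18 CPM in healthy females against 3.79 to 14.9 at Day 2. The part of these marker shifts in the change of Slc39a14, and that of the adrenal markers of Day 3, was not tested.

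At Day 5 the females held 42.2, 21.4, 31.3 and 31.5 CPM, with the lowest again in the library of high mitochondrial share. The log2 fold change was 0.57 (SE 0.23, adjusted p = 0.280). No member was called in females at Day 5 by edgeR, where 0.185% of all genes rose and 0.0738% fell. At an unadjusted p under 0.05 there were 2 members, Mt2 and Slc39a14, beside 2548 of 16260 genes, and DESeq2 called 1 member, beside 731 genes.

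In males Slc39a14 was higher by a smaller step that missed the test. Healthy males held 33.0, 29.3, 17.6 and 20.9 CPM, Day 2 males 38.9, 32.9, 30.5 and 46.5 CPM and Day 3 males 43.5, 37.5, 34.3 and 33.9 CPM. Day 3 did not overlap with healthy males and Day 2 did. Log2 fold changes were 0.55 (SE 0.21, adjusted p = 0.130) and 0.55 (SE 0.19, adjusted p = 0.0601), and DESeq2 called the second (adjusted p = 0.0233). Day 5 males held 28.2, 12.5, 19.3 and 5.67 CPM, with 2 mice below every control (log2 fold change -0.51, SE 0.41, adjusted p = 0.389).

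Slc39a10, the second importer, rose in males at Day 3 and was the only member that the main edgeR fit called there. DESeq2 called Slc39a14 too, and edgeR with at least 10 counts in every library called 2 members. Healthy males held 20.9, 20.8, 13.7 and 15.7 CPM and Day 3 males 24.0, 27.5, 23.9 and 28.1 CPM, and the groups did not overlap. The log2 fold change was 0.52 (SE 0.14, adjusted p = 0.0331), or 1.44-fold. At this day 11.4% of all genes rose and 13.1% fell, and 37.9% of them did not overlap between the groups, beside 1 of 6 members called higher, 0 called lower and 2 without overlap. The call was lost with no filter on low counts (adjusted p = 0.0590), in 1 fit over all groups (adjusted p = 0.144), with the mouse number as a block (adjusted p = 0.0789) and whenever any 1 of the Day 3 mice was left out (adjusted p of 0.0737 to 0.0927). From male Day 0 to Day 3 summed erythroid markers went from 382 to 1828 CPM down to 0.812 to 2.11 CPM, distal tubule markers from 649 to 699 down to 200 to 459 CPM, and adipocyte markers from 278 to 1332 down to 151 to 199 CPM. Endothelium sums went up from 103 to 106 CPM to 121 to 127 CPM. Podocyte sums went up from 41.5 to 61.8 CPM to 62.2 to 77.3 CPM, and neither overlapped. Proximal tubule sums overlapped, at 6329 to 9077 CPM at Day 3, and the part of these shifts in the Slc39a10 level was not tested.

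In females Slc39a10 was tightly grouped at Day 3, at 25.1, 25.6, 25.7 and 23.1 CPM, but healthy females were spread from 11.95 to 25.4 CPM and the log2 fold change of 0.37 (SE 0.25) had an adjusted p = 0.327. Levels were lowest at Day 5, at 14.99, 12.6, 8.30 and 14.9 CPM (log2 fold change -0.56, SE 0.31, adjusted p = 0.396). Day 2 females ran from 9.21 to 26.9 CPM, Day 2 males from 15.9 to 24.5 CPM and Day 5 males from 11.6 to 21.7 CPM, and none of these passed the test.

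No member was called in males at Day 2 by edgeR, where 1.81% of all genes rose and 1.35% fell, and DESeq2 called 0 members, beside 2938 of 16051 genes. At an unadjusted p under 0.05 there was 1 member, Slc39a14, beside 4654 genes.

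**Figure D4:**
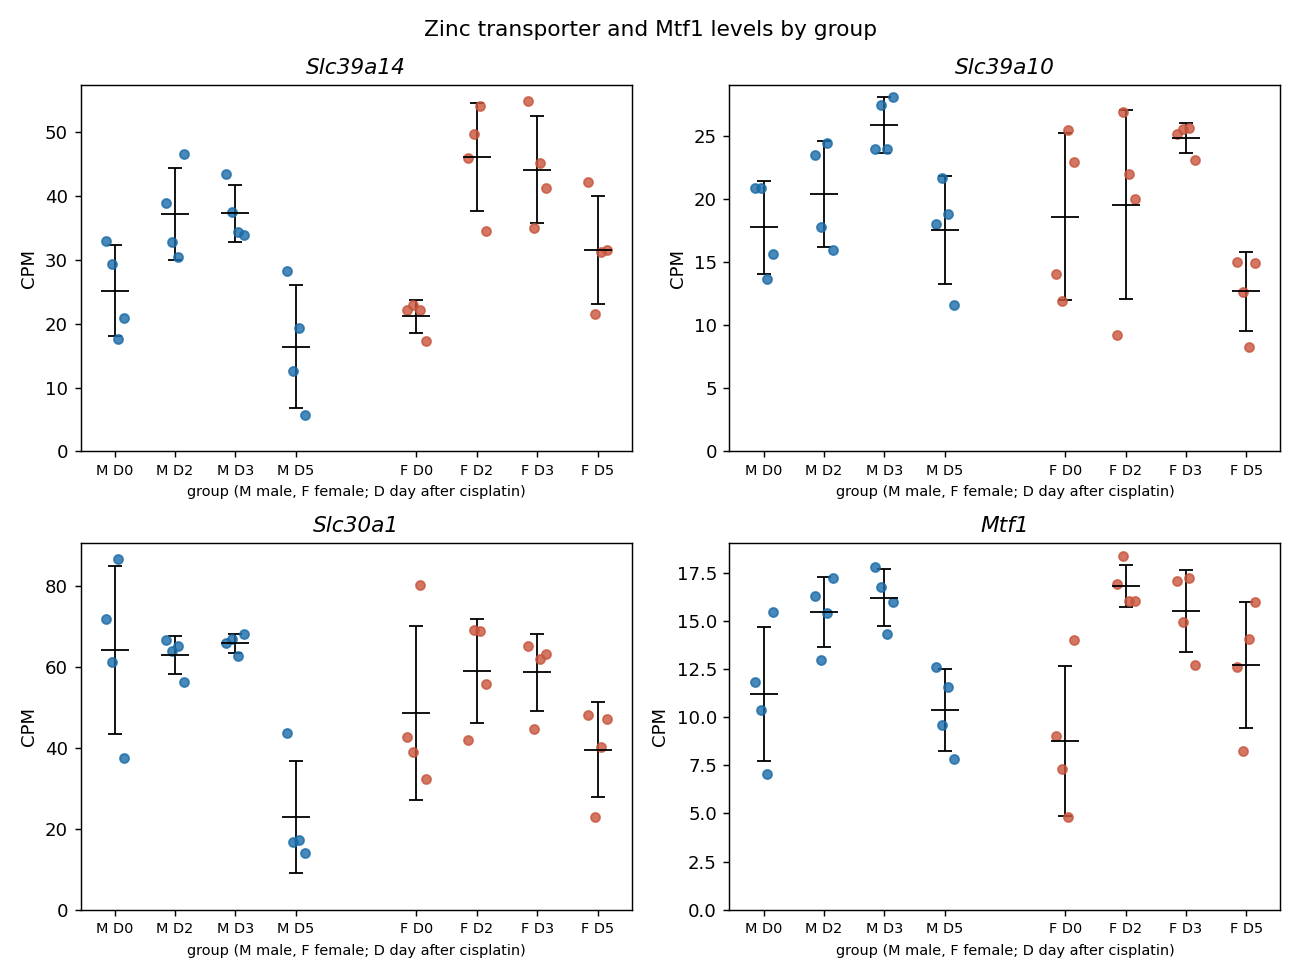
Levels of Slc39a14, Slc39a10, Slc30a1 and Mtf1 in CPM, 1 point for each mouse, by sex and day, with the group mean as a dash and 1 SD as the bar (n = 4). Slc39a14 of females lies at 34.6 to 54.9 CPM at Day 2 and Day 3 against 17.3 to 23.0 CPM at Day 0, and Slc30a1 of males lies at 14.0 to 43.6 CPM at Day 5.

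**Figure D5:**
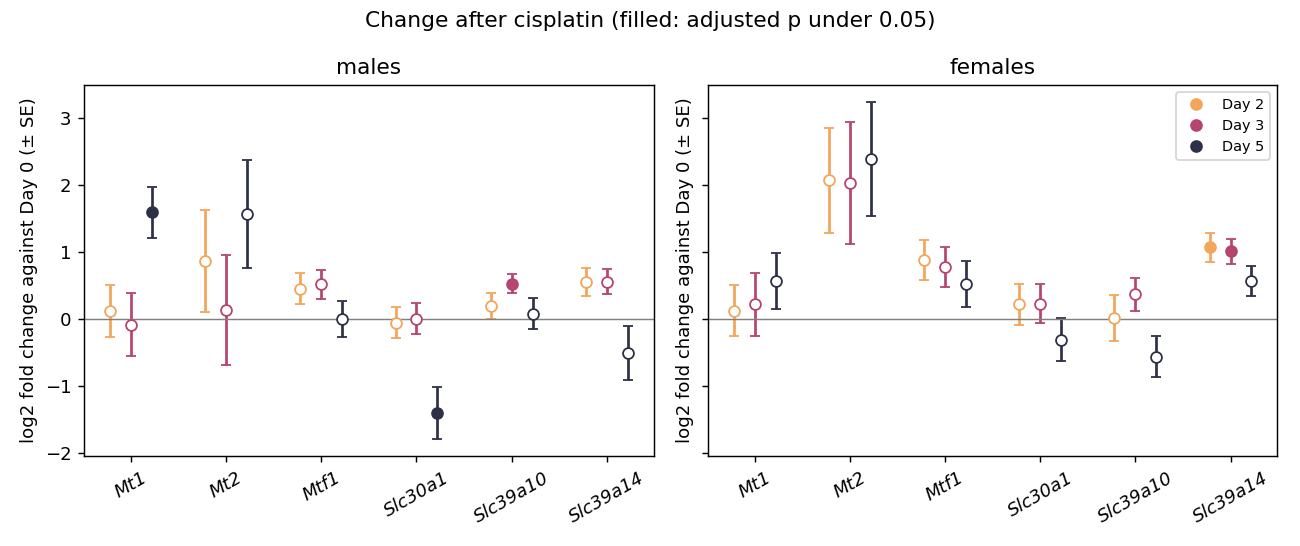
Log2 fold change against Day 0 of each member with its SE as the bar, for males on the left and females on the right, where filled points passed an adjusted p of 0.05. Filled points are Mt1, Slc30a1 (both Day 5) and Slc39a10 (Day 3) in males and Slc39a14 (Day 2 and Day 3) in females.

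Ordered by group mean, Slc39a14 ran from female Day 2 (46.1 ± 8.38 CPM) and female Day 3 (44.1 ± 8.36) through male Day 3 (37.3 ± 4.42), male Day 2 (37.2 ± 7.17), female Day 5 (31.6 ± 8.46), male Day 0 (25.2 ± 7.15) and female Day 0 (21.1 ± 2.62) to male Day 5 (16.4 ± 9.62). Slc30a1 was highest in male Day 3 (65.9 ± 2.33 CPM) and lowest in female Day 5 (39.6 ± 11.7) and male Day 5 (22.9 ± 13.9). Slc39a10 ran from male Day 3 (25.9 ± 2.21 CPM) and female Day 3 (24.9 ± 1.21) to female Day 5 (12.7 ± 3.14), and Mtf1 from female Day 2 (16.8 ± 1.10) to female Day 0 (8.78 ± 3.89). Mt2 ran from female Day 5 (2.92 ± 1.05 CPM) to female Day 0 (0.538 ± 0.507). Steps between neighbours exceeded the larger of their SDs at the lowest step of Slc30a1, between female and male Day 5, and at 2 steps of Slc39a10, from female Day 3 to male Day 2 and from male to female Day 5. For Slc39a14, Mtf1 and Mt2 no step did.

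Between Day 2 and Day 3 no member was called in either sex by edgeR, and the share of all genes called was 0%. Unadjusted p-values under 0.05 were found for 1410 genes in males, Slc39a10 among them (log2 fold change 0.34, SE 0.15), and 678 in females, with 0 of the 6 members. DESeq2 called 72 and 61 genes, again with 0 of the 6.

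Males and females were then compared directly at each day. No member was called at any day when each was fitted on its own groups, beside 0.449% of all genes at Day 0, 1.47% at Day 2, 21.3% at Day 3 and 0.276% at Day 5. At an unadjusted p under 0.05 there was 1 member at Day 0 and 1 at Day 2 (Mt1 in both), 0 at Day 3 and 1 at Day 5 (Slc39a10), beside 1289, 2485, 6119 and 3094 genes of 16042, 16608, 16673 and 15237 tested. DESeq2 called 0 members at every day, beside 434, 850, 4311 and 1055 genes. The joint fit of the 8 groups called Slc39a14 lower in males at Day 5 (log2 difference -0.87, SE 0.28, adjusted p = 0.0481), beside 1766 of 18220 genes. Mt1 had lower means in males on 3 days, with log2 differences of male minus female of -0.97 at Day 0 (SE 0.41, adjusted p = 0.596), -0.97 at Day 2 (SE 0.33, adjusted p = 0.205) and -1.29 at Day 3 (SE 0.56, adjusted p = 0.142), and 0.07 at Day 5 (SE 0.37). Groups overlapped on each of those days. Without male mouse 4, the Day 2 male with 276 CPM, Mt1 and Mt2 were called lower in males at Day 2, with adjusted p-values of 0.0368 and 0.0424. Without the library labelled male Day 5 mouse 1, Slc30a1 (log2 difference -1.12, adjusted p = 0.0103) and Slc39a14 (-1.16, adjusted p = 0.0442) were called lower in males at Day 5.

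Whether the change from Day 0 differed between the sexes was tested by the product of sex and day. No member was called at Day 2, Day 3 or Day 5, beside 0%, 0.0114% and 0.243% of all genes. At an unadjusted p under 0.05 there were 738 genes at Day 2, 1252 at Day 3 and 2568 at Day 5, with Slc39a14 at Day 5 as the only member, and DESeq2 called 0 members. Interaction terms for Slc39a14 were -0.55 (SE 0.30), -0.49 (SE 0.27) and -1.11 (SE 0.49) on the log2 scale, and that for Mt1 at Day 5 was 1.001 (SE 0.59, adjusted p = 0.447). For Slc30a1 at Day 5 the interaction was -1.11 (SE 0.54, edgeR adjusted p = 0.339). Without male Day 5 mouse 1, whose label is in doubt, it was -1.62, and that of Slc39a14 was -1.49. No fit without 1 mouse called either gene at Day 5, with lowest adjusted p-values of 0.0511 and 0.0630 in edgeR. The calls of Mt1 and Slc30a1 in males alone and of Slc39a14 in females alone are thus not shown to differ between the sexes.

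The wider transporter families were counted next. Of 10 ZnT genes, which move zinc out of the cytosol, 7 were tested in each comparison with Day 0, and 4 fell in males at Day 5 and 0 rose, with a median log2 fold change of -0.88 against 0.04 over all genes, of which 10.2% fell and 8.98% rose. Without mouse 1 the count was again 4, and without mice 2, 3 and 4, the libraries near 80% mitochondrial with proximal tubule sums of 518 to 978 CPM, it was 0, but that fit holds a single Day 5 male, mouse 1, whose label is in doubt, and its count says nothing of stability. The fallen genes were Slc30a1, Slc30a2, Slc30a5 and Slc30a9, of which Slc30a5 (log2 fold change -0.88) and Slc30a9 (-1.11) are named after their values were seen. None was called at any other day or in females by edgeR, whereas DESeq2 called 1 each in males at Day 2 and Day 3 and in females at Day 3. Slc30a8 had at most 3 counts in any library.

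Slc30a2 (ZnT2), which loads zinc into vesicles, had the largest fall in that family. Healthy males held 90.4, 72.5, 58.8 and 64.7 CPM and Day 5 males 17.4, 8.31, 6.34 and 5.40 CPM, with no overlap and a log2 fold change of -2.82 (SE 0.35, adjusted p = 0.00435). It was -3.30 (adjusted p = 0.000356) without mouse 1 and -1.95 (SE 0.35, adjusted p = 0.377) without mice 2, 3 and 4, with the same single Day 5 male. In females the levels were 35.7, 29.9, 27.8 and 39.2 CPM at Day 0 and 29.0, 18.3, 30.9 and 28.5 CPM at Day 5, with a log2 fold change of -0.32 (SE 0.22, adjusted p = 0.479). The difference between the sexes in this change was itself called, at -2.52 on the log2 scale (SE 0.41, adjusted p = 0.0210). High mitochondrial share was unevenly spread, with 3 of the male and 1 of the female Day 5 libraries near 80%, and without these 4 the difference was -1.84 (SE 0.37, adjusted p = 0.653), with male mouse 1 as the single Day 5 male. The share of mitochondrial counts and the loss of mice cannot be told apart in that fit. Without male mouse 1 it was -3.01 (adjusted p = 0.000553). Healthy males held more Slc30a2 than healthy females, with a log2 difference of 1.12 (SE 0.19, adjusted p = 0.0440).

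Of 14 ZIP genes, 12 or 13 were tested. In males 1 rose and 1 fell at Day 3 and 1 rose and 2 fell at Day 5, and in females 1 rose and 1 fell at both Day 2 and Day 3. The list includes members, and the rises at male Day 3 and at female Day 2 and Day 3 are those of Slc39a10 and Slc39a14 given above. Over all genes 11.4% rose and 13.1% fell in males at Day 3, and 8.98% and 10.2% at Day 5, so that the male counts are near the share of all genes, while in females 0.774% rose and 1.16% fell at Day 2 and 1.26% and 4.28% at Day 3. Slc39a12 had at most 3 counts in any library. Slc39a11 (ZIP11) fell from 40.4, 42.4, 33.9 and 20.4 CPM in healthy males to 7.69, 10.3, 3.55 and 7.28 CPM at Day 5 (log2 fold change -2.15, SE 0.34, adjusted p = 0.00762), and with mouse 1 as the single Day 5 male the log2 fold change was -2.07 (SE 0.49, adjusted p = 0.512). In females it fell from 28.6, 26.1, 41.8 and 22.5 CPM to 10.2, 4.42, 4.79 and 14.5 CPM at Day 2 (log2 fold change -1.86, SE 0.40, adjusted p = 0.0474). Neither comparison had overlapping groups.

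Among 9 genes of zinc sensing and reported MTF-1 targets, all tested and including members, the counts of genes higher and lower were 0 and 1, 1 and 2, and 2 and 2 in males at Day 2, Day 3 and Day 5. In females they were 1 and 0, 1 and 1, and 0 and 0. The gene higher in males at Day 3 was Slc39a10, which is in the list as a repressed target. The shares of all genes given for the ZIP genes apply here too, and in males at Day 2 1.81% of all genes rose and 1.35% fell. Beyond the members, Gclc, the catalytic subunit of glutathione synthesis, rose in females at Day 2 by 1.75 and at Day 3 by 1.73 on the log2 scale. It was the gene counted as higher in females on both days, and it is counted again among the NRF2 targets below. Ndrg1 fell in males, with log2 fold changes of -1.38, -0.97 and -2.18. Selenow, a selenoprotein, fell at Day 3 in males (-1.60) and females (-1.86).

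Genes that respond to known inducers of the metallothioneins and of Slc39a14 were counted as context. The activity of the inducers was not measured, and the link of these lists to the members was not tested. Of 7 glucocorticoid-responsive genes, all tested, 4, 5 and 5 rose in males at Day 2, Day 3 and Day 5 and 0 fell, with Per1 at 2.46, 2.11 and 2.19 on the log2 scale and list medians of 1.23, 1.22 and 1.47 against 0.03, 0.02 and 0.04 over all genes, of which 1.81%, 11.4% and 8.98% rose. In females 1 rose at each day, Fkbp5, by 2.28, 2.56 and 2.63, with list medians of 0.84, 0.16 and 0.64 against 0.03 at each day over all genes, of which 0.774%, 1.26% and 0.185% rose. Of 6 NRF2 targets tested, which answer oxidative stress, 4, 3 and 1 rose in females, with Nqo1 at 1.57 at Day 2 and 1.67 at Day 5 and list medians of 1.33, 1.43 and 1.21, while in males 0 rose and 1, Gclm, fell at Day 5 (log2 fold change -1.37), with list medians of 0.26, 0.24 and -0.33. The product of sex and day called 0 of the 6 NRF2 targets at each day. It called 0, 0 and 1 of the 7 glucocorticoid-responsive genes at Day 2, Day 3 and Day 5. Of the IL-6 type acute-phase genes 0 of 7, 2 of 7 and 2 of 8 tested rose in males and 0 of 9, 2 of 9 and 0 of 8 in females, with list medians of 0.08, 2.01 and 1.39 in males and -0.96, 0.26 and 0.14 in females. The shares of all genes that rose are those given for the glucocorticoid genes. Lcn2, a marker of tubular injury, rose among them by 3.53 in males at Day 3, 4.19 in males at Day 5 and 4.40 in females at Day 3, whereas Orm1, a gene of hepatocytes, fell at Day 3 in males (log2 fold change -4.61) and in females (-4.41, adjusted p = 0.0499). Without healthy female mouse 2, the library with hepatocyte genes, the female value was -2.43 (SE 0.58, adjusted p = 0.137). Without that mouse 0 acute-phase genes, Lcn2 included, were called in females on any day, and the list medians were 1.86, 3.02 and 2.15 at Day 2, Day 3 and Day 5.

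Over the members as a whole, the median log2 fold change was 0.32, 0.32 and 0.04 in males at Day 2, Day 3 and Day 5, against 0.03, 0.02 and 0.04 over all genes. In females it was 0.55, 0.57 and 0.54, against 0.03 at each day. Groups without overlap were found for 0, 2 and 1 members in males and 3, 1 and 1 in females, beside 23.9%, 37.9% and 27% of all genes in males and 15.6%, 19.5% and 8.47% in females.

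Across the 32 libraries, genes whose log2 CPM followed each member most closely are given as a description, since libraries share group, depth and tissue make-up. Mt1 was most like Lgals3, which encodes galectin-3 (Pearson's r = 0.90), Def6 (0.89) and Rras (0.89), and Mt2 like Cdr2l (0.83), Mlkl (0.81) and Tubb6 (0.81). Mtf1 was most like Atxn1l (0.95), Atg2b (0.94) and Sh3d19 (0.93). Slc30a1 was most like Metap1, the zinc transporter gene Slc30a5 and Canx, each at 0.93. Slc39a10 was most like Togaram1 (0.91), Cdc73 (0.88) and Pds5a (0.87), and Slc39a14 like Rnf4 (0.95), Ces2b (0.92) and Cdr2 (0.89). Among the members themselves r was 0.64 for Mt1 and Mt2, 0.71 for Slc30a1 and Slc39a14, 0.67 for Mtf1 and Slc39a14 and -0.49 for Mt1 and Slc39a10.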

How the data were processed

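Kidney RNA of 32 mice was sequenced by the study in paired-end reads of 150 bases and aligned to GRCm38. The deposited counts are raw reads per gene for 54532 genes, and the deposited FPKM values divide them by gene length and a library size scaled for each library, as the values show. The submitters' processing notes name HTSeq, DESeq2 and the builds GRCm39 and mm39, but the coordinates of the 6 genes equal those of the GENCODE annotation of GRCm38. Aligner, versions and strandedness are not given in the sources used here.

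The robust quasi-likelihood test of edgeR 4.0.16 (R 4.3.3), after TMM scaling and filterByExpr, was applied to the counts in 15 comparisons, each fitted over all genes of the groups compared, with Benjamini-Hochberg adjustment over all genes tested. A gene rose or fell where its adjusted p was under 0.05, and a DEG (differentially expressed gene) also had an absolute log2 fold change over 1.5. SE is that of the log2 fold change. CPM used TMM factors over all libraries, and log2 CPM a prior count of 2. Totals per library lay between 16502107 and 35961325 counts, and floors of 3 counts cover counting error only. The files were read by data.table, version 1.17.8. The tests were checked on simulated data.

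Groups follow the sex and day of the sample labels. Replicates are separate mice, and 0 pairs of libraries were identical. The genes named are the 6 members, genes of the metallothionein, ZnT and ZIP families that were a DEG on any day against Day 0 or had at most 3 counts in every library, the 3 protein-coding genes most correlated with each member, and up to 3 genes of each other list with the largest change among those called. The members and lists were chosen with earlier results of these data known.

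The alternatives were the Wald test of DESeq2 1.42.0, its size factors in edgeR, no filter, at least 10 counts in every library, a joint fit of the 8 groups, a replicate block by mouse number, leaving out mitochondrial genes, and each of the 32 mice left out in turn. Leaving out the Day 5 libraries over 50% mitochondrial, and for Slc30a2, Slc39a11, Mt3, Orm1, the ZnT genes and the acute-phase genes the single libraries named in the text, was chosen after seeing the data.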

Additional observations from a re-analysis of the deposited data

Results flagged for a closer look

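In 8 of 72 groups of 4 mice, over the 6 members with Mt3, Slc30a2 and Slc39a11, 1 mouse lay far from the others, where chance gives about 1 in 20 groups. Mt2 was at 3.11 CPM in male Day 2 mouse 4 against 0.452 to 0.850 in the other mice, and at 4.79 CPM in male Day 5 mouse 3 against 0.763 to 1.41. Slc30a1 was at 44.6 CPM in female Day 3 mouse 2 against 62.0 to 65.1, and at 43.6 CPM in male Day 5 mouse 1 against 14.0 to 17.3. Slc39a14 was at 17.3 CPM in female Day 0 mouse 4 against 22.1 to 23.0. Mt3 was at 2.98 CPM in male Day 0 mouse 4 against 0.545 to 0.750. Slc30a2 was at 57.8 CPM in male Day 2 mouse 3 against 42.3 to 44.9, and Slc39a11 at 30.7 CPM in female Day 3 mouse 2 against 8.49 to 12.3.

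The change of Slc30a2 at Day 5 differed between males and females, with an interaction of -2.52 on the log2 scale (SE 0.41, edgeR adjusted p = 0.0210). Without the Day 5 libraries over 50% mitochondrial it was -1.84, in a fit with male mouse 1 as the single Day 5 male. Without male mouse 1, whose label is in doubt, it was -3.01.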

How the results depend on the processing

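With 4 mice a group, single calls turned on the setting. At male Day 3 the count of members called went from 1 to 2 under DESeq2 and under the filter of 10 counts in every library, and to 0 with no filter, in 1 fit over 8 groups and with the replicate block. At female Day 2 it was 2 under DESeq2 and in 1 fit and 0 with the block, at female Day 3 it was 2 in 1 fit and 0 with the block, at female Day 5 it was 1 under DESeq2, and between the sexes at Day 5 it was 1 in 1 fit, Slc39a14. That 1 fit called 3976 of 18220 genes at female Day 2, 4268 at female Day 3 and 1766 between the sexes at Day 5. The 2 acute-phase genes higher and 1 lower in females at Day 3 became 0 without healthy female mouse 2. Without the male Day 5 libraries over 50% mitochondrial it was 0, as was the count of ZnT genes, but that fit holds 1 Day 5 male, whose label is in doubt, and cannot tell the libraries from the loss of mice. Leaving out 1 mouse gave 0 to 2 for male Day 3, male Day 5, female Day 2, female Day 3 and males against females at Day 2 and Day 5, and 0 in the other 9 comparisons. Deviations of same-numbered mice correlated at -0.40 to 0.47, and 10 of 48 pairs exceeded 0.1, in no comparison all 4. The fits without a block took the mice to share only a number. At Day 0 mouse 3 had the highest erythroid sum in each sex (1828 CPM in males, 2350 in females). Mouse 4 had the highest mitochondrial share in each sex (24.0% and 19.7%). Shared handling of same-numbered mice was not tested. Males against females at Day 0 came nearest, with 3 of 4 pairs over 0.1 and 210 genes called with the block against 72 without, of which 0 were members in either fit. With the block the count over all genes went from 3901 to 90 in males at Day 3 and from 945 to 0 in females at Day 3. DESeq2 called more genes than edgeR, with 2938, 5589 and 4210 against 507, 3901 and 2878 in males at Day 2, Day 3 and Day 5, and 2132, 3625 and 731 against 320, 945 and 42 in females. Without a filter the median log2 fold change of all genes was 0.19 and 0.15 in males at Day 2 and Day 3 and 0.17 in females at Day 3. The cause was not tested.

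Log2 fold changes that turned direction had adjusted p-values over 0.05 in the fits that turned them. DESeq2 gave -0.000662 for Slc30a1 at male Day 3 and 0.0022 for Mtf1 at male Day 5, and its size factors gave -0.000759 for Slc30a1 at male Day 3. The filter of 10 counts gave 0.013 for Mtf1 at male Day 5. The replicate block gave 0.010 for Slc30a1 at male Day 2, -0.090 for Mt2 at male Day 3, 0.022 for Mtf1 at male Day 5, -0.022 for Slc39a10 at female Day 2 and -0.030 for Mt1 from Day 2 to Day 3 in females. Leaving out mitochondrial genes gave -0.017 for Slc30a1 at male Day 3 and 0.013 for the Mt1 interaction at Day 2, and leaving out the libraries over 50% mitochondrial gave 0.26 for Mtf1 and 0.25 for Slc39a14 at male Day 5.

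With 1 mouse left out, the log2 fold change in males ran from -0.27 to 0.35 for Mt1, -0.040 to 1.53 for Mt2 and -0.24 to 0.14 for Slc30a1 at Day 2, from -0.63 to 0.15, -0.57 to 0.83 and -0.18 to 0.22 for the same genes at Day 3, and from -0.15 to 0.18 for Mtf1 and -0.044 to 0.23 for Slc39a10 at Day 5. In females it ran from -0.12 to 0.41 for Mt1 and -0.15 to 0.25 for Slc39a10 at Day 2, -0.0014 to 0.51 for Mt1 at Day 3 and -0.46 to 0.066 for Slc30a1 at Day 5. From Day 2 to Day 3 it ran in males from -0.73 to 0.17 for Mt1, -1.42 to 0.15 for Mt2 and -0.075 to 0.12 for Slc39a14, and in females from -0.11 to 0.40 for Mt1, -0.33 to 0.30 for Mt2, -0.12 to 0.13 for Slc30a1 and -0.18 to 0.052 for Slc39a14. Males minus females, it ran from -0.34 to 1.12 for Mt2 and -0.25 to 0.14 for Slc39a10 at Day 0, -0.15 to 0.26 for Slc39a10 and -0.015 to 0.21 for Slc30a1 at Day 2, -0.0098 to 0.13 for Mtf1 at Day 3 and -0.15 to 0.29 for Mt1 at Day 5. Interactions ran from -0.40 to 0.23 for Mt1 and -0.093 to 0.35 for Slc39a10 at Day 2 and -0.065 to 0.29 for Slc39a10 at Day 3.

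DESeq2 moved counts of list genes called by over 1.5 times, upward each time. Over all genes it called 2938 of 16051, 5589 of 15908 and 4210 of 14969 in males at Day 2, Day 3 and Day 5. In females it called 2132 of 16541, 3625 of 17065 and 731 of 16260, and the list counts are to be read against these. Metallothioneins had 1 at male Day 2 and 2, 1 and 2 in females at Day 2, Day 3 and Day 5. ZIP genes had 1 and 4 in males at Day 2 and Day 3, and 4 and 1 in females at Day 3 and Day 5. NRF2 targets had 1, 1 and 2 in males and 6 and 3 in females at Day 3 and Day 5. Acute-phase genes had 2 and 5 in males at Day 2 and Day 3 and 2 in females at Day 2 and Day 5. MTF-1 genes had 3 and 2 in females at Day 2 and Day 5, and glucocorticoid genes 3, 2 and 2 in females. In the other comparisons such counts were 1 to 4. Depth limits Mt2 and Mt3, with 0 to 143 counts per library.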
